A study of Mus musculus with 26 samples.

Results

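The 10 genes followed here through the livers of 26 mice given benoxacor were the glucocorticoid receptor gene Nr3c1, 7 genes known as glucocorticoid targets (Fkbp5, Tsc22d3, Sgk1, Klf9, Errfi1, Map3k6 and Gadd45g) and the metallothionein genes Mt1 and Mt2. They were taken by gene symbol from a count table of 54532 genes, and each of the 10 symbols stood on 1 row. Benoxacor is a safener, a compound added to herbicide products to protect the crop. C57BL/6 mice, which had been acclimatised from 4 to 8 weeks with mixed bedding, received it by oral gavage on 3 consecutive days, and liver was taken 24 h after the last dose for RNA sequencing. The doses were 0 mg/kg (5 mice), 0.5 mg/kg (5 mice), 5 mg/kg (8 mice) and 50 mg/kg (8 mice). The labels give neither the sex of the mice nor what the 0 mg/kg mice were gavaged with. No genotype beyond the strain is named for any group. Mouse numbers form a pair of runs that the labels do not explain, 601 to 616 (15 mice, with 4, 3, 4 and 4 at the rising doses) and 619 to 632 (11 mice, with 1, 2, 4 and 4). They are called here the run from 601 and the run from 619, and replicates within a dose are numbered in the order of the mouse numbers. Within the run from 619 a dose is thus set against 1 control mouse.

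Glucocorticoids, the adrenal steroids corticosterone and cortisol, enter the cell and bind a receptor held ready by heat shock chaperones. The receptor then moves to the nucleus and binds DNA at glucocorticoid response elements near its target genes, several of which dampen the hormone's action or that of growth factors. Metallothioneins are small cysteine-rich proteins that hold zinc and copper. In liver their genes are induced through metal response elements by the zinc-sensing factor MTF1, and they are also known to rise with glucocorticoids and with inflammatory cytokines.

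The sequence of 3 promoters is shown because they hold letter matches to metal or glucocorticoid response elements. Each is the 250 bases before a RefSeq transcription start on GRCm38.p6, 5′ to 3′ on the plus strand, and capitals mark each match, on either strand, to the metal response element core (TGCACNC or TGCGCNC) in Mt1 and Mt2 or to the full glucocorticoid response element (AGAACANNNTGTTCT) in Sgk1.
Mt1 at chr8:94178839-94179088: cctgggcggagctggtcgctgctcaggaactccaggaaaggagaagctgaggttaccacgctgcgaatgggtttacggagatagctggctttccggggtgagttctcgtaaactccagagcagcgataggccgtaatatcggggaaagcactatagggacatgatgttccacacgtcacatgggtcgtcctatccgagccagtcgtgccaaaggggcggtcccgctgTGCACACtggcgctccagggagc
Mt2 at chr8:94172368-94172617: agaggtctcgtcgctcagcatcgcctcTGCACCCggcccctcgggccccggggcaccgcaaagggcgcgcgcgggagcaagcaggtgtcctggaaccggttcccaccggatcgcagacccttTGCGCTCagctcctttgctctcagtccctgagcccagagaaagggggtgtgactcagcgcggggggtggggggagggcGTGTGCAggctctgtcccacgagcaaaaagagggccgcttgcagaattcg
Sgk1 at chr10:21993640-21993889: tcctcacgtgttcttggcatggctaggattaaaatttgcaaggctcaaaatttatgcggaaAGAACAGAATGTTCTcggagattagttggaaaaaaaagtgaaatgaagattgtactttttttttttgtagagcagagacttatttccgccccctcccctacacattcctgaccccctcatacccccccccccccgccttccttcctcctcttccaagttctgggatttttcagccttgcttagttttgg
The Mt1 window held 1 metal response element core, beginning 23 bases before the start. The Mt2 window held 3, beginning 223, 128 and 50 bases before it. Of 32851 RefSeq promoter windows of this length, 21.4% held at least 1 such core and 1.26% held at least 3. The full glucocorticoid element began 189 bases before 1 of the 6 Sgk1 starts in the RefSeq table and was present in 3 of the 32851 windows (0.00913%). Promoter windows were matched for 9 of the 10 genes, without Nr3c1. A match here is a match of letters only. Bases outside these windows, including those after the RefSeq start used, were not searched. The numbers of cores are thus those of the windows and not of the whole promoters, and they do not rank Mt1 against Mt2.

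In the GENCODE M21 annotation of mm10, Mt2 lies at chr8:94172664-94173568 and Mt1 at chr8:94179082-94180327, both on the plus strand with 5513 bases between them. The predicted gene Gm45774 overlaps Mt2 on the opposite strand. Fkbp5 lies at chr17:28399094-28517527 and Tsc22d3 at chrX:140539528-140600659, both on the minus strand. The plus strand carries Sgk1 (chr10:21882184-21999903), Klf9 (chr19:23141226-23168134), Errfi1 (chr4:150853919-150868892), Map3k6 (chr4:133240818-133252929) and Gadd45g (chr13:51846678-51848468). Nr3c1 is on the minus strand of chromosome 18. Fkbp5, Klf9 and Errfi1 also overlap other annotated genes, and whether the reads were counted by strand is not given in the sources used here.

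Libraries held 5433074 to 9088626 counted reads (median 7105531). All 8 hepatocyte markers were present, and their summed level was 45210 to 128423 CPM over the 26 livers. CPM stands here for counts scaled to library size, with TMM factors (trimmed means of the log ratios between libraries). Of 4 mice that stand apart and bear on the 10 genes, replicates 1 and 2 at 0.5 mg/kg had the highest levels of the acute phase gene Saa1, 2311 and 3233 CPM, against at most 655 CPM in any other mouse. In replicate 8 at 5 mg/kg the 6 adrenal cortex markers summed to 3540 CPM against at most 18.4 CPM elsewhere. The same mouse also had the highest summed stellate and fibroblast markers (410 CPM) and lymphocyte markers (58.2 CPM), and its 5 exocrine pancreas markers summed to 45.6 CPM against at most 1.02 CPM elsewhere. The 4 fat markers summed to 224 CPM in it and to 113 CPM in replicate 6 at 5 mg/kg, the mouse highest in metallothionein at that dose, against at most 9.61 CPM in the other 24 mice. The adrenal markers Cyp11a1 and Cyp11b1 were at 473 and 465 CPM in it, and Cyp11a1 was at 0 reads in all other mice. In bulk liver, fewer cells of a type and less RNA per cell cannot be told apart.

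None of the 10 genes passed the test at any dose. The test was edgeR's quasi-likelihood test with dose and run in the fit of all 26 mice, with Benjamini-Hochberg adjustment over the 14415 genes with enough reads, all 10 genes among them, and a threshold of 0.05. At 50 against 0 mg/kg, 0 of the 10 passed, where 0.00694% of all genes tested did (1 gene, the glucocorticoid-induced repressor Zbtb16, lower at 50 mg/kg). At 5 against 0 mg/kg and at 0.5 against 0 mg/kg, 0 of 10 passed, against a background of 0% in both. At 50 against 5 mg/kg, a comparison without the control mice, 0 of 10 passed, again with a background of 0%. The joint test for any difference among the 4 doses called 0 of 10, with a background of 0.00694%. The smallest unadjusted p of that joint test among the 10 were 0.0327 for Mt2, 0.0468 for Gadd45g and 0.0639 for Fkbp5, all with an edgeR adjusted p of 0.860, and 5.7% of all genes had one under 0.05. At an unadjusted p under 0.05, edgeR called 1 of the 10 at 50 mg/kg (Fkbp5) where 5.11% of all genes had such a p. It called 1 at 5 mg/kg (Fkbp5) where 6.18% did, 2 at 0.5 mg/kg (Mt1 and Mt2) where 6.99% did, and 0 at 50 against 5 mg/kg where 4.85% did. DESeq2 and limma-voom also called 0 of the 10 in each of these dose comparisons. The 3 comparisons with 0 mg/kg use the same 5 control livers. Between 50 and 5 mg/kg the log2 fold changes of the 10 genes ran from -0.37 (Errfi1) to 0.27 (Map3k6). Over all mice, 0 of the 10 genes had a dose group wholly above or below the controls, where 1.4% of all genes tested did at 0.5 mg/kg, and 0.222% and 0.166% did at the upper 2 doses.

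**Figure D1:**
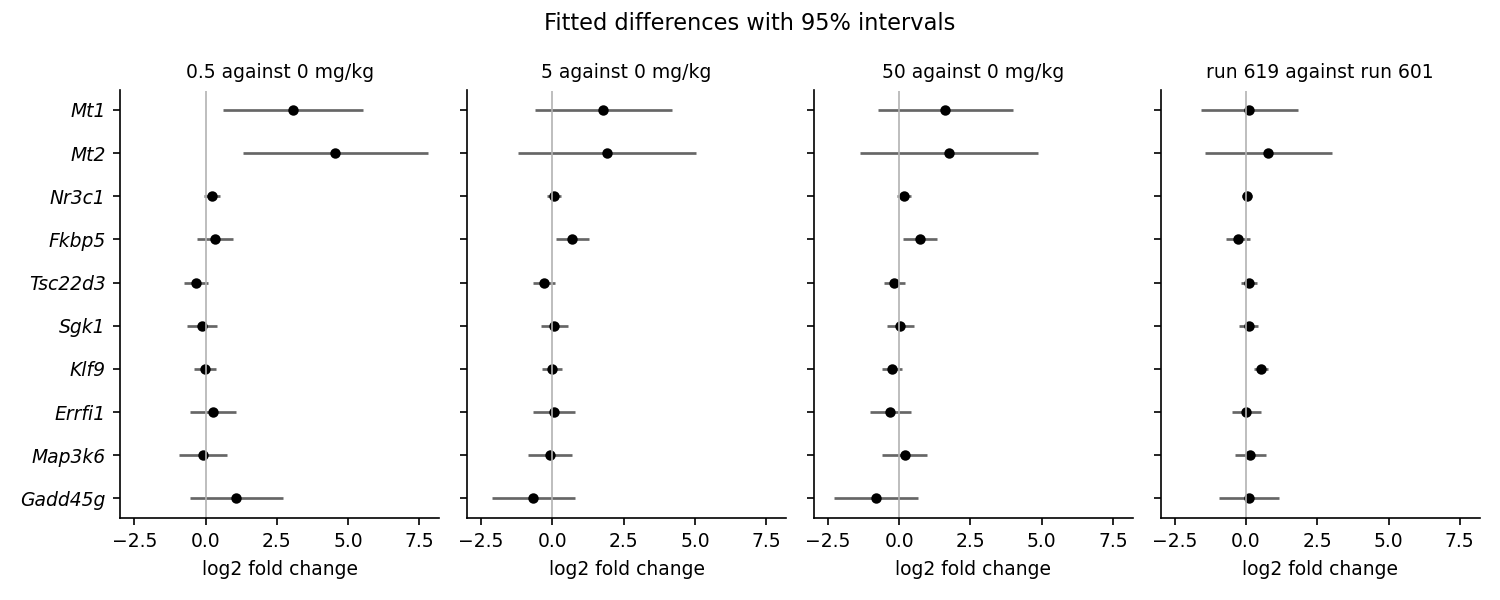
Fitted log2 fold changes (x axis) of the 10 genes (y axis) in 4 comparisons, points with bars for the 95% confidence interval of the edgeR fit of 26 mice. At 5 and 50 mg/kg the interval of Fkbp5 lies above 0, at 0.5 mg/kg those of Mt1 and Mt2 do, and in the comparison of runs that of Klf9 does; none of these differences passed after adjustment over all genes.

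The receptor gene Nr3c1 was the steadiest of the 10. Its level in the 5 control livers was 111, 130, 111, 82.1 and 126 CPM, and at 0.5 mg/kg it was 121, 158, 144, 113 and 121 CPM. It ran from 95.7 through a median of 117 to 140 CPM at 5 mg/kg, and from 104 through 126 to 146 CPM at 50 mg/kg. Every dose overlapped the controls, and the highest of the 26 livers was 1.93 times the lowest. The fitted difference on the log2 scale was 0.17 ± 0.12 (SE), 0.06 ± 0.12 and 0.23 ± 0.13 at 50, 5 and 0.5 mg/kg. The 95% interval at 50 mg/kg ran from -0.084 to 0.43. Its residual SD around the dose and run means was 0.195 on the log2 scale, and only 11% of 14264 genes of at least 1 CPM had a smaller one (median of all, 0.336).

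Fkbp5 encodes FKBP51, a co-chaperone that lowers the receptor's affinity for hormone and is itself a hormone target. The control livers had 43.1, 19.5, 43.2, 51.8 and 45.4 CPM, and those at 0.5 mg/kg had 37.7, 81.1, 40.8, 24.4 and 62.9 CPM. Its range was 30.5 to 98.0 CPM (median 61.0) at 5 mg/kg and 40.8 to 93.0 CPM (median 62.8) at 50 mg/kg. The medians of the upper doses thus exceeded the highest control, although some mice at each dose lay among the controls. Group means were 40.6 ± 12.3 (SD, n = 5), 49.4 ± 22.5 (n = 5), 63.7 ± 22.2 (n = 8) and 63.9 ± 20.6 CPM (n = 8) at 0, 0.5, 5 and 50 mg/kg. The fitted log2 fold change was 0.73 ± 0.29 (SE) at 50 mg/kg (1.65-fold; edgeR adjusted p = 0.883). It was 0.70 ± 0.29 at 5 mg/kg (1.63-fold; edgeR adjusted p = 0.780) and 0.32 ± 0.31 at 0.5 mg/kg (adjusted p = 0.902). Between 5 and 50 mg/kg the difference was 0.02 ± 0.24, with a 95% interval from -0.48 to 0.52.

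The run and 1 control mouse bear on the size of the Fkbp5 difference. Within the run from 601, the 4 mice at 5 mg/kg had 98.0, 84.4, 59.8 and 62.3 CPM, all above the 4 controls of that run. Among all genes tested, 2.12% lay wholly higher in that comparison of 4 with 4 mice. The log2 fold change within that run was 0.93 at 5 mg/kg and 0.78 at 50 mg/kg. Within the run from 619, which has 1 control mouse, it was 0.18 and 0.40. Without control replicate 2, the liver at 19.5 CPM, the log2 fold change in all mice was 0.55 at 50 mg/kg and 0.53 at 5 mg/kg. In no alternative fit did Fkbp5 pass the threshold at either dose.

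Tsc22d3 encodes GILZ, a leucine zipper protein that carries part of the anti-inflammatory action of glucocorticoids. Its level in the controls was 85.8, 72.5, 56.3, 59.0 and 47.0 CPM, and at 0.5 mg/kg it was 45.7, 42.2, 45.2, 58.6 and 68.5 CPM. It ran from 39.1 through 50.3 to 88.5 CPM at 5 mg/kg and from 42.9 through 57.0 to 76.4 CPM at 50 mg/kg. All doses overlapped the controls over the 26 mice. In the run from 601, however, the 3 mice at 0.5 mg/kg were all below the 4 controls, a pattern shown by 5.92% of all genes tested. The fitted log2 fold changes were -0.33 ± 0.21 (SE), -0.29 ± 0.19 and -0.17 ± 0.19 at 0.5, 5 and 50 mg/kg, with adjusted p = 0.785, 0.780 and 0.997 in edgeR's test. They had the opposite sign to Fkbp5 at the same doses, while the mice from 619 on, taken alone, gave 0.46, 0.22 and 0.38.

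Sgk1 encodes a serum- and glucocorticoid-regulated kinase that acts on ion channels and transporters, and its printed promoter holds the full response element. Control livers had 16.5, 23.5, 10.4, 10.9 and 15.2 CPM, and those at 0.5 mg/kg had 21.8, 12.8, 11.9, 13.0 and 11 CPM. It ran from 9.60 through 14.9 to 28.1 CPM at 5 mg/kg and from 10.1 through 16.7 to 19.0 CPM at 50 mg/kg. The doses lay over one another, and the fitted differences were -0.14 ± 0.26, 0.07 ± 0.24 and 0.03 ± 0.23 on the log2 scale at 0.5, 5 and 50 mg/kg. The highest liver, at 28.1 CPM, was replicate 8 at 5 mg/kg, the one with the adrenal cortex markers. Without that mouse the difference at 5 mg/kg was -0.054.

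Klf9 encodes a Krüppel-like transcription factor that responds to glucocorticoids and follows the daily rhythm. Control livers had 48.6, 63.0, 70.7, 75.4 and 131 CPM, and those at 0.5 mg/kg had 63.8, 72.4, 68.0, 101 and 99.0 CPM. The range was 53.8 to 132 CPM at 5 mg/kg (median 77.4) and 37.5 to 96.8 CPM at 50 mg/kg (median 72.2). Doses overlapped, and the log2 fold changes were -0.02 ± 0.19, -0.03 ± 0.17 and -0.25 ± 0.17 at 0.5, 5 and 50 mg/kg. Its fitted difference between the runs was larger than those between doses.

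Errfi1 encodes MIG6, an inhibitor of the epidermal growth factor receptor that is abundant in liver. Control livers had 386, 831, 468, 347 and 1030 CPM, and those at 0.5 mg/kg had 854, 755, 599, 871 and 570 CPM. Livers ranged from 295 to 1103 CPM at 5 mg/kg (median 616) and 244 to 864 CPM at 50 mg/kg (median 336). At 50 mg/kg the 8 livers held 3 at 783 CPM or more and 5 at 374 CPM or less, and no control lay between 468 and 831 CPM either. The fitted log2 fold changes, 0.25 ± 0.39, 0.07 ± 0.36 and -0.31 ± 0.35 at 0.5, 5 and 50 mg/kg, were all smaller than their SE.

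Map3k6, which encodes the stress-activated kinase ASK2, was the lowest of the 10. Control livers had 2.10, 2.61, 2.61, 1.74 and 1.33 CPM, and those at 0.5 mg/kg had 2.36, 3.50, 1.52, 1.12 and 1.40 CPM. It ran from 1.05 through 1.68 to 5.08 CPM at 5 mg/kg and from 1.59 through 2.13 to 4.44 CPM at 50 mg/kg. The groups overlapped, and the log2 fold changes were -0.11 ± 0.41, -0.08 ± 0.38 and 0.19 ± 0.38 at 0.5, 5 and 50 mg/kg. The highest liver was again replicate 8 at 5 mg/kg. Without it the difference at 5 mg/kg was -0.35, and whether the adrenal or other foreign cells carried its Map3k6 was not tested.

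Gadd45g encodes a small growth arrest and DNA damage protein, and its promoter window held 1 metal response element core. Its level swung widely: control livers had 7.0, 45.6, 4.39, 5.23 and 71.5 CPM, and those at 0.5 mg/kg had 55.5, 103, 62.2, 43.1 and 12.1 CPM. The upper doses gave 4.24 to 38.7 CPM (5 mg/kg, median 13.4) and 3.69 to 35.5 CPM (50 mg/kg, median 9.2). In the run from 601 the 3 mice at 0.5 mg/kg all exceeded the 4 controls, a pattern shown by 7% of all genes tested. The highest and lowest liver differed 28.0-fold, and the residual SD of 1.31 on the log2 scale was the 57th largest of 14264 genes. The fitted log2 fold change was 1.08 ± 0.79, -0.68 ± 0.70 and -0.82 ± 0.70 at 0.5, 5 and 50 mg/kg, with edgeR adjusted p = 0.841, 0.847 and 0.997. The last 2 rest on control replicate 5, the only control of its run, at 71.5 CPM. Without that mouse the values were 1.9, 0.27 and 0.19 in the same order.

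**Figure D2:**
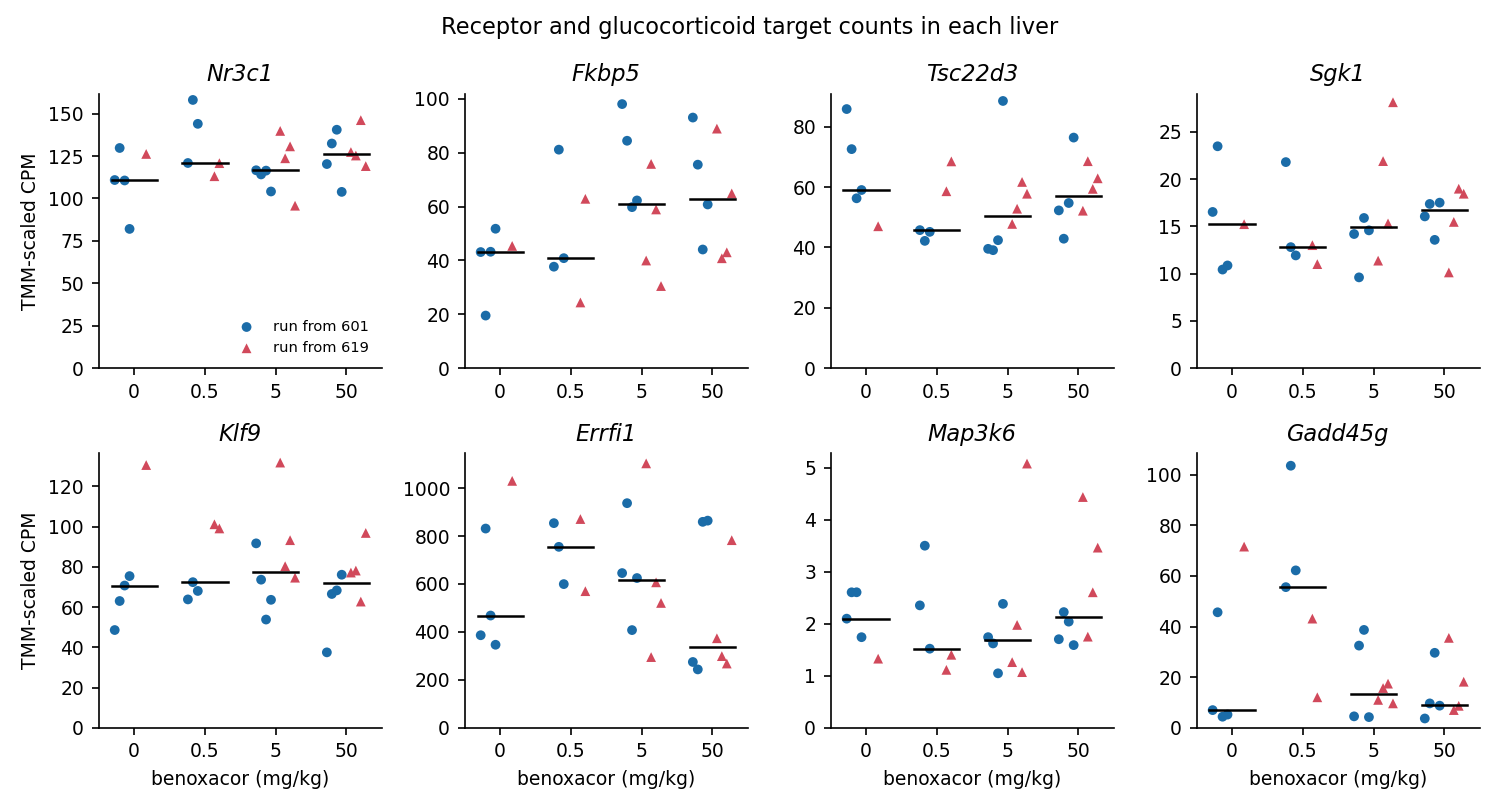
TMM-scaled CPM (y axes, linear from 0) of the receptor gene and 7 target genes in each liver by benoxacor dose in mg/kg (x axes), circles for the run from 601, triangles for the run from 619 and bars for the dose medians. In all 8 panels the doses overlap, the Fkbp5 medians at 5 and 50 mg/kg stand above the highest control of 51.8 CPM, and the Klf9 triangles sit mostly above the circles.

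The metallothioneins differed between single mice far more than between doses. Mt1 was at 15.7, 3.91, 1.78, 34.6 and 5.17 CPM in the control livers and at 151, 329, 6.22, 13.3 and 17.7 CPM at 0.5 mg/kg. It ran from 5.84 through a median of 16.4 to 201 CPM at 5 mg/kg and from 6.06 through 31.9 to 98.6 CPM at 50 mg/kg. Livers above the highest control were present at each dose of benoxacor, beside others that lay among the controls. Mt2 was at 4.62, 1.3, 0.412, 13.7 and 2.51 CPM in the controls and at 154, 339, 2.28, 2.85 and 5.15 CPM at 0.5 mg/kg. The range was 1.05 to 137 CPM at 5 mg/kg (median 5.53) and 1.75 to 68.5 CPM at 50 mg/kg (median 9.37). From the lowest to the highest liver Mt1 spanned 184-fold and Mt2 822-fold. The control liver with the least held 13 reads of Mt1 and 3 of Mt2, so the lower end of these spans rests on few reads.

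**Figure D3:**
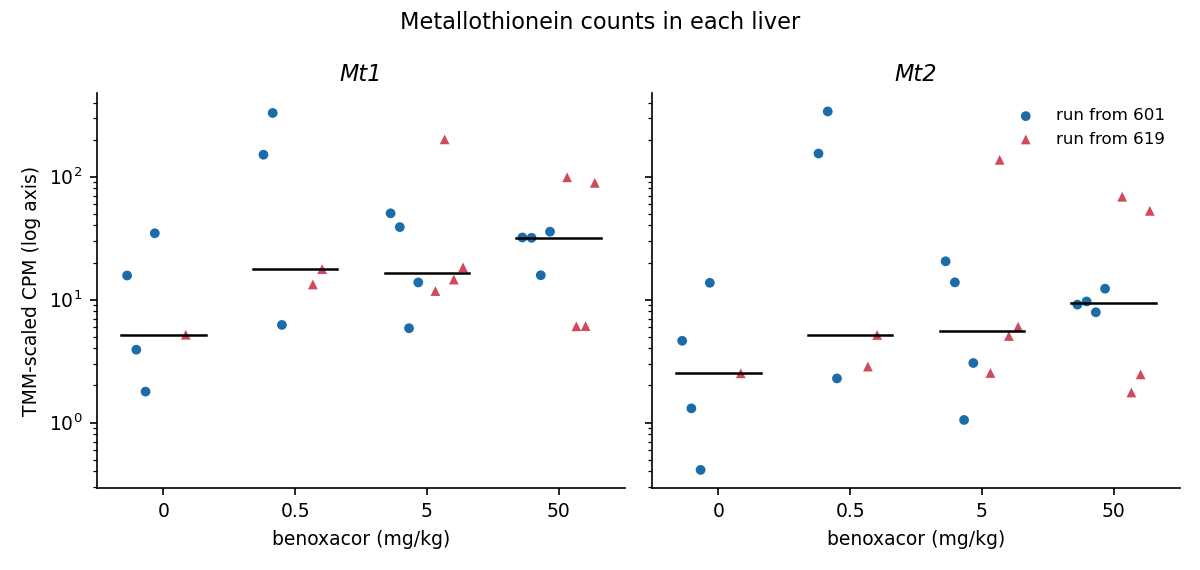
TMM-scaled CPM (y axis, log scale) of Mt1 and Mt2 in each of 26 livers by benoxacor dose in mg/kg (x axis), circles for the run from 601, triangles for the run from 619 and bars for the dose medians. Replicates 1 and 2 at 0.5 mg/kg (circles at 151 and 329 CPM of Mt1) and replicate 6 at 5 mg/kg (triangle at 201 CPM) stand above the other mice of their dose, and every dose overlaps the controls.

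The fitted log2 fold change of Mt1 was 3.07 ± 1.19 (SE), 1.78 ± 1.16 and 1.62 ± 1.14 at 0.5, 5 and 50 mg/kg, with edgeR adjusted p = 0.605, 0.782 and 0.987. That of Mt2 was 4.55 ± 1.57, 1.92 ± 1.51 and 1.75 ± 1.5, with edgeR adjusted p = 0.537, 0.806 and 0.997. The point estimates were thus largest at the lowest dose, 8.40-fold for Mt1 and 23.4-fold for Mt2. The 95% intervals were wide, from -0.75 to 3.99 for Mt1 and from -1.37 to 4.87 for Mt2 at 50 mg/kg. Without replicates 1 and 2 at 0.5 mg/kg, the log2 fold change at that dose was -0.55 for Mt1 and -1.32 for Mt2. That fit leaves replicate 3 in the run from 601 and replicates 4 and 5 in the run from 619. Their Mt1 levels, 6.22, 13.3 and 17.7 CPM, lay within the control range of 1.78 to 34.6 CPM. No reversal is read from these values. Without replicate 6 at 5 mg/kg, the values at 5 mg/kg were 1.01 and 0.82. The differences at 50 mg/kg kept a positive sign in each fit without 1 mouse, from 1.28 to 2.48 for Mt1 and from 1.34 to 2.84 for Mt2. The residual SD around dose and run means was 2.26 on the log2 scale for Mt2 and 1.78 for Mt1, the 2nd and 10th largest of 14264 genes.

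Replicates 1 and 2 at 0.5 mg/kg were the 2 highest livers in Mt2, in Saa1, a serum amyloid gene induced by inflammation, and in Lcn2, a neutrophil- and liver-derived iron-scavenging lipocalin. In Mt1, replicate 6 at 5 mg/kg (201 CPM) lay between them (151 and 329 CPM). The 2 highest sums of the 5 neutrophil markers at 0.5 mg/kg were 33.0 and 12.4 CPM. The sum was at most 14.6 CPM in the controls and at most 4.81 CPM at 50 mg/kg. Which mice held these sums is not given here. Replicate 6 at 5 mg/kg, with 201 CPM of Mt1 and 137 CPM of Mt2, had 74.2 CPM of Saa1, close to the median of 62.6 CPM over all mice, and 113 CPM of summed fat markers, whose part in its metallothionein was not tested. At 50 mg/kg, replicates 5 and 8 had 98.6 and 88.9 CPM of Mt1 with 362 and 177 CPM of Saa1, while replicates 3 and 4, with 597 and 655 CPM of Saa1, had 15.8 and 35.6 CPM of Mt1. Lcn2 was at 32.8 and 57.8 CPM in replicates 1 and 2 at 0.5 mg/kg, at 9.03 CPM in replicate 6 at 5 mg/kg and at 11.2 and 7.55 CPM in replicates 5 and 8 at 50 mg/kg. The 5 livers highest in Lcn2 were thus the 5 highest in Mt1 and in Mt2, whereas those highest in Saa1 were not. The part of an acute phase state in the metallothionein levels was not tested.

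Mt1 and Mt2 moved together from liver to liver. Over the 15 mice of the run from 601, Pearson's r of their log2 CPM was 0.98 and Spearman's rho 0.99, and over the 11 mice of the run from 619 they were 0.98 and 0.97. Each r had an adjusted permutation p of 6.5e-04, from 100000 resamples with Benjamini-Hochberg adjustment over 130 correlations (65 pairs in each run), and the raw p of 1e-05 is the smallest the resamples can give. Without the 2 mice farthest from the Mt1 median, r was 0.97 and 0.95. The ratio of Mt2 reads to Mt1 reads was not constant, however. It ran from 0.179 to 1.03 with a median of 0.346, and it was highest in replicates 1 and 2 at 0.5 mg/kg (1.02 and 1.03), followed by replicate 5 at 50 mg/kg (0.695) and replicate 6 at 5 mg/kg (0.681). Mt2 thus differed between livers by more than Mt1 did.

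Of the other pairs among the 10 genes, 1 passed the threshold in 1 run. Klf9 and Errfi1 were correlated over the 11 mice of the run from 619 (r = 0.90, rho = 0.88, permutation adjusted p = 0.00607). Without the 2 mice farthest from the Klf9 median r was 0.84 over 9 mice, which missed the threshold (permutation adjusted p = 0.176), and the other run gave r = 0.50 (permutation adjusted p = 0.408). Mt2 with Saa1 gave r = 0.72 over the mice from 601 on (permutation adjusted p = 0.0637), or 0.35 without the 2 mice farthest from the Mt2 median. Over the mice from 619 on it was 0.71 (permutation adjusted p = 0.243), or 0.72 without the 2 mice farthest from the Mt2 median. No other pair of the 10 genes passed in either run.

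**Figure D4:**
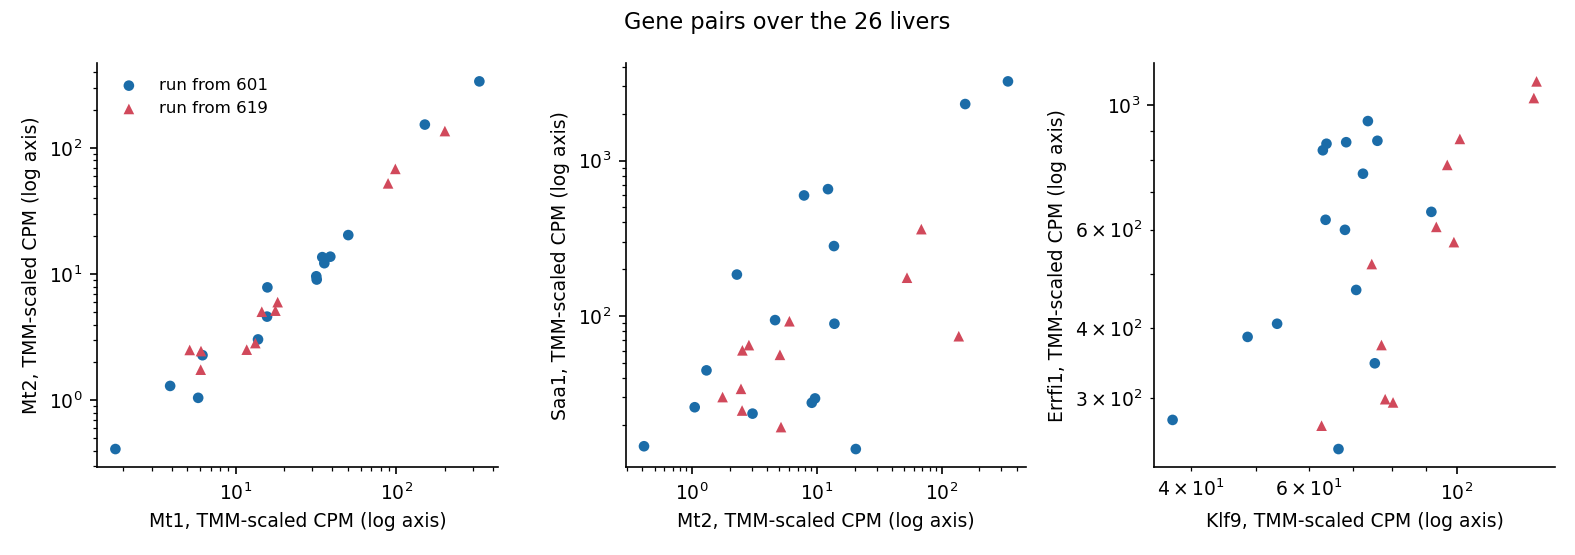
TMM-scaled CPM of Mt2 against Mt1, Saa1 against Mt2 and Errfi1 against Klf9 (both axes log scale), one point per liver, circles for the run from 601 and triangles for the run from 619. Mt1 and Mt2 follow a line over all 26 livers (r = 0.98 in each run), Saa1 and Mt2 scatter, and Klf9 and Errfi1 follow each other most closely among the triangles (r = 0.90).

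The genes of most similar pattern to Mt1 were sought by the correlation of residuals around the dose and run means over 26 mice, among 14264 genes, as a description. They were Gm45774 (r = 0.98), whose reads cannot be told apart from those of Mt2 without knowing the strand setting, Mt2 itself (r = 0.98), and then Lbp (r = 0.79), Lcn2 (r = 0.77) and Itih4 (r = 0.76). Lbp encodes the lipopolysaccharide-binding protein and Itih4 an inter-alpha-trypsin inhibitor heavy chain, both secreted by the liver. For Fkbp5 the nearest included Nucks1 (r = 0.74), Lrwd1 (r = 0.73), Atp6v1g1 (r = 0.72) and Fars2 (r = 0.71). The Fkbp5 list thus held none of the other 9 genes, while the Mt1 list held Mt2.

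Between the runs, Klf9 showed the clearest difference of the 10 genes. Its mean was 66.2 ± 12.7 CPM (SD, n = 15) in the run from 601 and 93.2 ± 22.2 CPM (n = 11) in the run from 619. The fitted log2 fold change was 0.51 ± 0.12 (SE; 1.42-fold; edgeR adjusted p = 0.0753), which misses the threshold, so that 0 of 10 were called where 0.0902% of all genes tested were. DESeq2 put it past the threshold (adjusted p = 0.0123), as did edgeR without replicate 4 or replicate 7 at 50 mg/kg (adjusted p = 0.0454 and 0.0333). With an index of 14 clock genes added to the fit it was 0.44 (edgeR adjusted p = 0.730), and over the mice at 5 and 50 mg/kg alone it was 0.39 (adjusted p = 0.485). Of 14 listed clock genes, 2 were called by edgeR between the runs, where 0.0902% of all genes were, and 12 had an unadjusted edgeR p under 0.05, where 7.98% of all genes did. One of the 2, Npas2, was higher in the run from 619 (log2 fold change 3.46, edgeR adjusted p = 0.00987; limma-voom adjusted p = 0.0504). What the runs stand for, and the part of the time of day in Klf9, was not tested.

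None of the remaining 9 genes had an unadjusted edgeR p under 0.05 between the runs, so that Klf9 was the 1 of 10 with one, where 7.98% of all genes had one. Mt2 had a log2 fold change of 0.78 ± 1.07 and Mt1 of 0.12 ± 0.82, and Fkbp5, lower in the run from 619, of -0.28 ± 0.20. The others lay between 0.01 (Errfi1) and 0.15 (Map3k6), so that 9 of 10 had a positive sign beside 54.0% of all genes tested. Without replicate 6 at 5 mg/kg the Mt1 and Mt2 values turned to -0.74 and -0.58. Whether 50 against 5 mg/kg differed by run was tested as an interaction over the 16 mice at these doses. None of the 10 passed, against a background of 0% of 13418 genes, and the smallest unadjusted p in edgeR's test was 0.134 for Sgk1 (log2 difference -0.57 ± 0.37). At an unadjusted p under 0.05, edgeR called 0 of the 10 where 4.89% of all genes had one.

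Per kilobase of the principal transcript, Errfi1 was the highest with a median of 198 CPM per kb over the 26 livers. Mt1 (30.4), Tsc22d3 (28.1), Nr3c1 (18.8), Klf9 (16.5), Fkbp5 (14.3), Gadd45g (13.0), Mt2 (10.9) and Sgk1 (6.22) followed, and Map3k6 was lowest at 0.431 CPM per kb. The range of Errfi1, 80.1 to 362 CPM per kb, lay above those of the other genes except Mt1 (3.25 to 599), Mt2 (0.806 to 663) and Gadd45g (3.45 to 96.6). Neighbours from Mt1 down to Sgk1 overlapped in range, and Mt2 passed Errfi1 only in single mice of high metallothionein. Because Gm45774 overlaps Mt2 and the strand setting is not given, the place of Mt2 in this order is uncertain. The whole order also takes reads to cover full transcripts and the principal transcript to be the one expressed. Neither was tested.

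Other genes of the glucocorticoid response had log2 fold changes of both signs. Of 28 further genes known to be induced by glucocorticoids, 26 were tested. At 50 mg/kg, 10 had a positive and 16 a negative log2 fold change with a median of -0.089, beside 51.1% positive and a median of 0.005 over all genes. One of them was called, Zbtb16, which encodes a zinc finger repressor, with a log2 fold change of -1.72 ± 0.25 (edgeR adjusted p = 0.00333). Without control replicate 5 it was -1.64 (edgeR adjusted p = 0.0702), and without the run term -1.42 (adjusted p = 0.890). Lpin1, a phosphatidate phosphatase and lipid regulator, was at -0.80 (edgeR adjusted p = 0.769). Cdkn1a, the cell cycle inhibitor p21, was at -1.51 (edgeR adjusted p = 0.877), or -0.63 without control replicate 4. At 5 mg/kg the split was 12 positive to 14 negative (median -0.0058), and at 0.5 mg/kg 9 to 17 (median -0.12), with none called by edgeR. Over all genes, 51.9% and 50.8% were positive at these doses. An unadjusted edgeR p under 0.05 was found for 3, 1 and 5 of the 26 at 50, 5 and 0.5 mg/kg, where 5.11%, 6.18% and 6.99% of all genes had one. By smallest p at 0.5 mg/kg the first was Lcn2, also an acute phase gene, at 3.49, or 2.42 without replicate 2 at that dose. The estimates of Fkbp5 and Zbtb16, both textbook hormone targets, thus had opposite signs at all 3 doses. Of these estimates only that of Zbtb16 at 50 mg/kg passed the threshold. That of Fkbp5 at 0.5 mg/kg, 0.32 ± 0.31, was about the size of its SE. Zbtb16 was also higher in the run from 619, by 1.01 ± 0.18 (edgeR adjusted p = 0.0186, or 0.0508 without replicate 4 at 5 mg/kg and 0.0548 without replicate 4 at 0.5 mg/kg). Its control range of 14.3 to 54.5 CPM overlapped the range at 50 mg/kg, 5.4 to 20.0 CPM, over both runs together. The ranges by run follow as a description. The share of all genes that lie apart within a run at 50 mg/kg is not given here. The 4 controls from 601 on had 14.3 to 27.6 CPM against 5.4 to 8.46 CPM at 50 mg/kg, and the 1 control from 619 on had 54.5 CPM against 9.53 to 20.0 CPM.

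For the lists that follow, the background over all genes tested was 51.1%, 51.9% and 50.8% with a positive log2 fold change at 50, 5 and 0.5 mg/kg, and 5.11%, 6.18% and 6.99% with an unadjusted edgeR p under 0.05. The 10 chaperone genes listed for the receptor had log2 fold changes that were positive in 2, 1 and 9 of 10 at 50, 5 and 0.5 mg/kg, with none called by edgeR and none at an unadjusted p under 0.05. Of 9 genes of steroid supply and clearance, 5, 4 and 5 were positive and none was called, with 2, 1 and 1 at an unadjusted p under 0.05. Beside the metallothioneins, 15 of 16 listed zinc and copper genes were tested. Their signs were positive in 11, 10 and 10 of 15 at 50, 5 and 0.5 mg/kg, with medians of 0.12, 0.072 and 0.20, and none was called by edgeR, with 1, 0 and 2 at an unadjusted p under 0.05. Slc30a1, the zinc exporter that MTF1 induces together with the metallothioneins, had 55.7, 59.7, 81.5, 67.5 and 41.7 CPM in controls and 65.4 to 106 CPM at 50 mg/kg. Its log2 fold change was 0.32 ± 0.15 there (edgeR adjusted p = 0.974). Mtf1 itself had log2 fold changes of -0.02 ± 0.15, -0.03 ± 0.15 and -0.12 ± 0.16 at 50, 5 and 0.5 mg/kg. In livers of high metallothionein, Slc30a1 was at 56.3 and 75.9 CPM (replicates 1 and 2 at 0.5 mg/kg) and 69.4 CPM (replicate 6 at 5 mg/kg). It was at 66.6 and 78.4 CPM in replicates 5 and 8 at 50 mg/kg. All of these lay within the control range, and whether Slc30a1 follows the metallothioneins from liver to liver was not tested. Slc39a14, the zinc importer ZIP14, was chosen after its values were seen: replicates 1 and 2 at 0.5 mg/kg were the highest of the 26 livers, at 344 and 457 CPM, against at most 308 CPM in the others.

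The 20 acute phase genes listed had positive log2 fold changes in all 20 at 0.5 mg/kg, with a median of 1.04, in 13 at 5 mg/kg (median 0.17) and in 18 at 50 mg/kg (median 0.37). None was called by edgeR, with 13, 1 and 1 at an unadjusted p under 0.05 where 6.99%, 6.18% and 5.11% of all genes had one, and 50.8%, 51.9% and 51.1% were positive. By smallest p at 0.5 mg/kg, the first were Saa3 (2.19 ± 0.54) and Orm1 (1.18 ± 0.30), both with an edgeR adjusted p of 0.492, and the log2 fold change was largest for Saa2 (4.57 ± 1.42), named after its value was seen. Without replicate 2 at 0.5 mg/kg, Saa3 was at 1.37 and Orm1 at 0.75. Without both mice of high Saa1, Lcn2, also of this list, turned from 3.49 to a negative value. The 20 genes were not counted again as a list in that fit, so how far their signs rest on these 2 mice was not tested. This list and the metallothioneins had their largest fitted differences at the same dose, where the same 2 mice of high Saa1 stand. These mice were set apart by Saa1, itself a gene of this list, and both are also high in the metallothioneins. The shared dose is therefore not a separate result.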

How the data were processed

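Liver RNA of 26 mice was sequenced, and raw read counts per gene were deposited by the authors, as 1 table per mouse and 1 combined table. All 26 single tables equal the combined one. Per the submitters' processing notes, reads were converted with bcl2fastq and counted with featureCounts on mm10. The aligner, gene annotation, strand setting and versions are not given in the sources used here. Counts without strand can mix overlapping genes. Each mouse is a separate animal, and the 76 pairs of mice within a dose differed beyond sampling noise (chi-square per degree of freedom 12.0 to 123.8).

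Counts were tested with edgeR 4.0.16 in R 4.3.3 (filterByExpr by dose, TMM scaling, robust quasi-likelihood fit, terms for dose and run, all 26 mice), keeping 14415 genes with 99.7% of reads. The SE of a log2 fold change is its size over the root of F. Log2 CPM for correlations and residuals used a prior count of 2. Alternatives were DESeq2 1.42.0, limma-voom (limma 3.58.1), other scaling, filters, terms and sets of mice. The scripts were tested on simulated counts. All 10 genes were named in every comparison, with up to 3 genes per pathway list by smallest p. Zbtb16, Saa1, Mtf1 and Slc30a1 were named for some of the comparisons, and Per1 for that of the runs. Of the genes of similar pattern to Fkbp5, 1 is not reported here. The 10 genes and all lists were chosen with earlier results of these data known. Depth of 5433074 to 9088626 reads limits genes of few reads, such as Map3k6.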

Additional observations from a re-analysis of the deposited data

Results flagged for a closer look

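Within the dose groups, 40 sets of values (10 genes at 4 doses) were searched for a highest or lowest mouse standing apart from its group by Dixon's gap, and 6 were found. For normally distributed values, chance flags about 1 in 20 such groups. The search used CPM that were not log-transformed, and these are skewed in genes such as Mt1 and Mt2. That rate therefore does not hold for them, and no excess over chance is read from the 6. Mt1 at 5 mg/kg was highest in replicate 6, at 201 CPM against 50.2 CPM in the next mouse, and Mt2 was highest in the same liver, at 137 against 20.5 CPM. Fkbp5 at 0 mg/kg was lowest in replicate 2, at 19.5 CPM against 43.1 CPM in the next. Tsc22d3 at 5 mg/kg was highest in replicate 4, at 88.5 against 61.7 CPM. Sgk1 at 0.5 mg/kg was highest in replicate 1, at 21.8 against 13.0 CPM, a liver that was also high in Saa1 and the metallothioneins. Map3k6 at 5 mg/kg was highest in replicate 8, at 5.08 against 2.38 CPM, the liver with adrenal cortex markers.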

How the results depend on the processing

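Over the 60 log2 fold changes of the 10 genes and 2010 alternative fits of them, 1858 kept their sign and their side of the threshold, 3 passed it (Klf9 between the runs in each) and 149 had the opposite sign. All those of opposite sign missed the threshold before and after, and 21 of the 60 kept their sign in every fit. The cause of each change was not tested. In the run from 619 alone, the log2 fold changes of opposite sign were for 50 against 0 mg/kg Tsc22d3 0.38, and for 5 against 0 mg/kg Tsc22d3 0.22, Errfi1 -0.70, Map3k6 0.82, Nr3c1 -0.042, Slc39a4 0.31, and for 0.5 against 0 mg/kg Fkbp5 -0.027, Tsc22d3 0.46, Errfi1 -0.49, Gadd45g -1.35, Nr3c1 -0.083, and for 50 against 5 mg/kg Gadd45g 0.39. Without the 2 mice of high Saa1, the reversed values were for 50 against 0 mg/kg Sgk1 -0.00261, and for 0.5 against 0 mg/kg Mt1 -0.55, Mt2 -1.32, Lcn2 -0.28. In the run from 601 alone, the reversed values were for 50 against 0 mg/kg Errfi1 0.14, Map3k6 -0.26, and for 5 against 0 mg/kg Sgk1 -0.18, Klf9 0.12, Gadd45g 0.34, and for 0.5 against 0 mg/kg Klf9 0.051, Map3k6 0.089, Slc31a1 -0.00108, and for 50 against 5 mg/kg Mt1 0.085, Mt2 0.0029, Fkbp5 -0.15, Sgk1 0.26. Without replicates 6 and 8 at 5 mg/kg, the reversed values were for 5 against 0 mg/kg Sgk1 -0.17, Klf9 0.065, and for 50 against 5 mg/kg Mt1 1.14, Mt2 1.73, Fkbp5 -0.016, Sgk1 0.26, and between runs Mt1 -0.79, Mt2 -0.60, Sgk1 -0.10, Map3k6 -0.14. With the 2 doses compared alone, the reversed values were for 5 against 0 mg/kg Sgk1 -0.032, and for 0.5 against 0 mg/kg Map3k6 0.052. Without the run term, the reversed values were for 5 against 0 mg/kg Klf9 0.094, and for 0.5 against 0 mg/kg Klf9 0.060. In limma-voom, the reversed values were for 0.5 against 0 mg/kg Klf9 0.012, and for 50 against 5 mg/kg Mt1 0.14, Mt2 0.50, Sgk1 0.000132, and between runs Mt1 -0.41, Mt2 -0.68, Errfi1 -0.00946. With the clock index, the reversed values were for 50 against 5 mg/kg Mt1 0.20, Mt2 0.32, Fkbp5 -0.024, Sgk1 0.027, and between runs Mt1 -0.70, Mt2 -0.24, Sgk1 -0.19, Errfi1 -0.35, Gadd45g -0.11. With the mice at 5 and 50 mg/kg alone, the reversed values were between runs Errfi1 -0.21, Gadd45g -0.076. Genes called among all tested, at 50 against 0 mg/kg, were 1 in the main test, 3 by DESeq2, 2 with the clock index, 4 in the run from 601 alone, 0 in the run from 619 alone and 0 without the run term. At 5 against 0 mg/kg DESeq2 called 4, and at 0.5 against 0 mg/kg it called 7 and the run from 601 alone 33, each against 0. For any dose, against 1, it was 11 by DESeq2, 9 in the run from 601 alone, 2 with the clock index and 0 without the filter, without the run term, in limma-voom or in the run from 619 alone. Between runs, against 13, DESeq2 called 108 (1 of the 10 genes, Klf9), limma-voom 6, and the fit with the clock index 0. Leaving out 1 mouse at a time gave, for 50 against 0 mg/kg, 0 to 1 genes called, Sgk1 -0.068 to 0.24, Errfi1 -0.49 to 0.031, Map3k6 -0.035 to 0.29, Gadd45g -1.13 to 0.19. In the same way, for 5 against 0 mg/kg it gave 0 to 3 genes called, Sgk1 -0.054 to 0.27, Klf9 -0.13 to 0.13, Errfi1 -0.085 to 0.43, Map3k6 -0.35 to 0.038, Gadd45g -1.0 to 0.27, Nr3c1 -0.025 to 0.12. In the same way, for 0.5 against 0 mg/kg it gave Sgk1 -0.37 to 0.068, Klf9 -0.12 to 0.11, Map3k6 -0.49 to 0.056. In the same way, for 50 against 5 mg/kg it gave Mt1 -0.55 to 1.09, Mt2 -0.69 to 1.71, Fkbp5 -0.10 to 0.11, Sgk1 -0.12 to 0.11, Gadd45g -0.43 to 0.17. In the same way, for any dose it gave 0 to 4 genes called. In the same way, between runs it gave 2 to 60 genes called, 0 to 1 of the 10 genes called, Mt1 -0.74 to 0.42, Mt2 -0.58 to 1.17, Sgk1 -0.00583 to 0.16, Errfi1 -0.16 to 0.11, Map3k6 -0.088 to 0.28, Gadd45g -0.38 to 0.29. In the same way, for the interaction it gave 0 to 2 genes called, Mt1 -0.96 to 1.62, Mt2 -0.99 to 2.73, Tsc22d3 -0.39 to 0.18, Klf9 -0.29 to 0.080, Errfi1 -0.82 to 0.037, Map3k6 -0.064 to 0.91, Zbtb16 -0.22 to 0.33. No paired analysis was possible because the labels give the mice no number shared between doses. Depth limits Map3k6 and, in the lowest livers, Mt2, and the run from 619 has 1 control mouse.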
